A study of Rattus norvegicus with 13 samples.

Results

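The genes described here mark microglia, the resident macrophages of the brain, and the macrophages of its borders. They were 32 named genes, each measured by a row of the array annotated with exactly 1 gene symbol, and all 32 were found among the 22093 genes of the table. P2ry13 had a further row, and for it the row with the higher mean over the 13 arrays was taken. The arrays held hypothalamic RNA of male Sprague-Dawley rats, which arrived at 6 to 7 weeks of age, and were fed 1 of 3 diets at will over 2 months, until an age of 14 to 15 weeks. The low-fat control diet (LF-CD, 4 arrays) gave 16% of its energy as soybean oil. The high-fat flaxseed diet (HF-FD, 4 arrays) and the high-fat safflower diet (HF-SD, 5 arrays) each gave 35%, as an oil rich in alpha-linolenic acid, an omega-3 fat, or in linoleic acid, an omega-6 fat. The high-fat diets differ from the low-fat diet in both the amount and the kind of oil, so these cannot be told apart in a comparison with it. The labels do not say whether an array held the RNA of a single rat, and p-values measure the spread between arrays.

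Microglia depend on the receptor Csf1r for survival and on the transcription factors Spi1 (PU.1) and Irf8 for their identity. In the unstimulated brain they sense nucleotides through P2ry12 and the chemokine fractalkine through Cx3cr1, and they make the C1q complement proteins that tag material for removal. When microglia respond to injury or inflammation, receptors such as P2ry12 and Tmem119 are known to fall, while phagocytic and lysosomal genes such as Cd68 and Trem2 are known to rise. High-fat feeding in rodents has been studied for such reactions in the hypothalamus, the region that controls food intake.

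Signals are given as the authors' RMA values on the log2 scale, in which a difference of 1 is a doubling. Because the spread of signals differed between diets, many changes are also given after quantile normalization, which makes the distribution the same on all arrays. Changes given without a scaling are those of the deposited values. The sign turned with quantile normalization in 12 of the 31 genes tested for safflower against low-fat. For flaxseed against low-fat it turned in 9, and for safflower against flaxseed in 7. Among the tested genes, the interquartile range of an array was 1.33 to 1.39 on low-fat, 1.39 to 1.52 on flaxseed and 1.51 to 1.68 on safflower arrays. Low-fat replicate 3 stood apart in a gene of skeletal muscle: Myl11 was at 9.29 there and between 6.25 and 7.19 on the other arrays. Counts of genes called and the changes of those genes are given without it as well, and so are other changes in comparison with low-fat that it moved. Of the 32 genes, 31 passed the filter on low signal (a 13-array mean of at least 6.58, which is the median over all rows) and were tested among 16033 genes with limma, and a change was called at a Benjamini-Hochberg adjusted p under 0.05 over all of them. Hpgds, the haematopoietic prostaglandin D synthase, had a mean of 6.50 and was not tested, while Ly86 and Cd163, at 6.70 and 6.70, were the genes just inside the filter. The defining microglial genes Aif1, Itgam, Cx3cr1, P2ry12, Tmem119, Csf1r, Trem2 and C1qa all passed it, with means from 7.38 to 10.12, beside array medians from 4.47 to 4.96 for 76 olfactory receptor genes, a measure of background. The 95th percentile of the olfactory gene means was 7.25, and 6 of the 32 genes had means at or under it: Cd14, Cd163, Fcgr1a, Hpgds, Ly86 and Ptprc.

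With the safflower diet, P2ry13, a purine receptor of microglia, and Apbb1ip, the adaptor that links the small GTPase Rap1 to integrins, were higher than with the low-fat diet with either scaling, 1.41-fold and 1.37-fold with the deposited values. P2ry12, the neighbouring purine receptor, was 1.19-fold higher and Cd14, a co-receptor for endotoxin, 1.14-fold lower, both called with the deposited values only. Gpr34, a receptor for lysophosphatidylserine, and Ly86, the partner of the receptor-like protein RP105, were called higher with the quantile-normalized values only, 1.27-fold and 1.25-fold. The other 25 genes tested, among them C1qa, C1qb, C1qc, Trem2, Tyrobp, Cd68, Itgam and Aif1, did not pass with either.

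In counts, 4 of the 31 genes tested passed with the deposited values, 3 higher and 1 lower. In the same limma comparison 39.8% of all genes tested passed (22.9% higher and 16.9% lower). With quantile normalization 4 of 31 passed, all higher, where 14.5% of all genes did (10.1% higher and 4.37% lower). Median centring of the arrays gave 3 higher and 7 lower of 31, where 42.1% of all genes passed, and cyclic loess 4 higher and 2 lower, where 19.3% did. The deposited log2 change was above 0 in 16 of the 31 genes and below 0 in 15, against 60.8% above 0 among all genes tested. Its median was 0.001 over the 31 genes and 0.07 over all genes tested. After quantile normalization these medians were 0.03 and 0.04. For 29 of the 31 genes the 95% confidence interval of the deposited change lay inside a 1.5-fold change in either direction, and for 28 it did after quantile normalization. The count moved to 8 of 31 without low-fat replicate 3 (3 higher and 5 lower, with 40.1% of all genes passing), and to 7 without flaxseed replicate 1 (42.5% of all) or without safflower replicate 4 (41.9% of all). With quantile normalization it moved to 7 of 31 without low-fat replicate 3 (19.4% of all) and to 2 without low-fat replicate 1, safflower replicate 1 or safflower replicate 5 (5.49%, 6.43% and 5.92% of all). In RNA of a whole tissue, fewer cells of a type and less RNA per cell cannot be told apart.

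**Figure D1:**
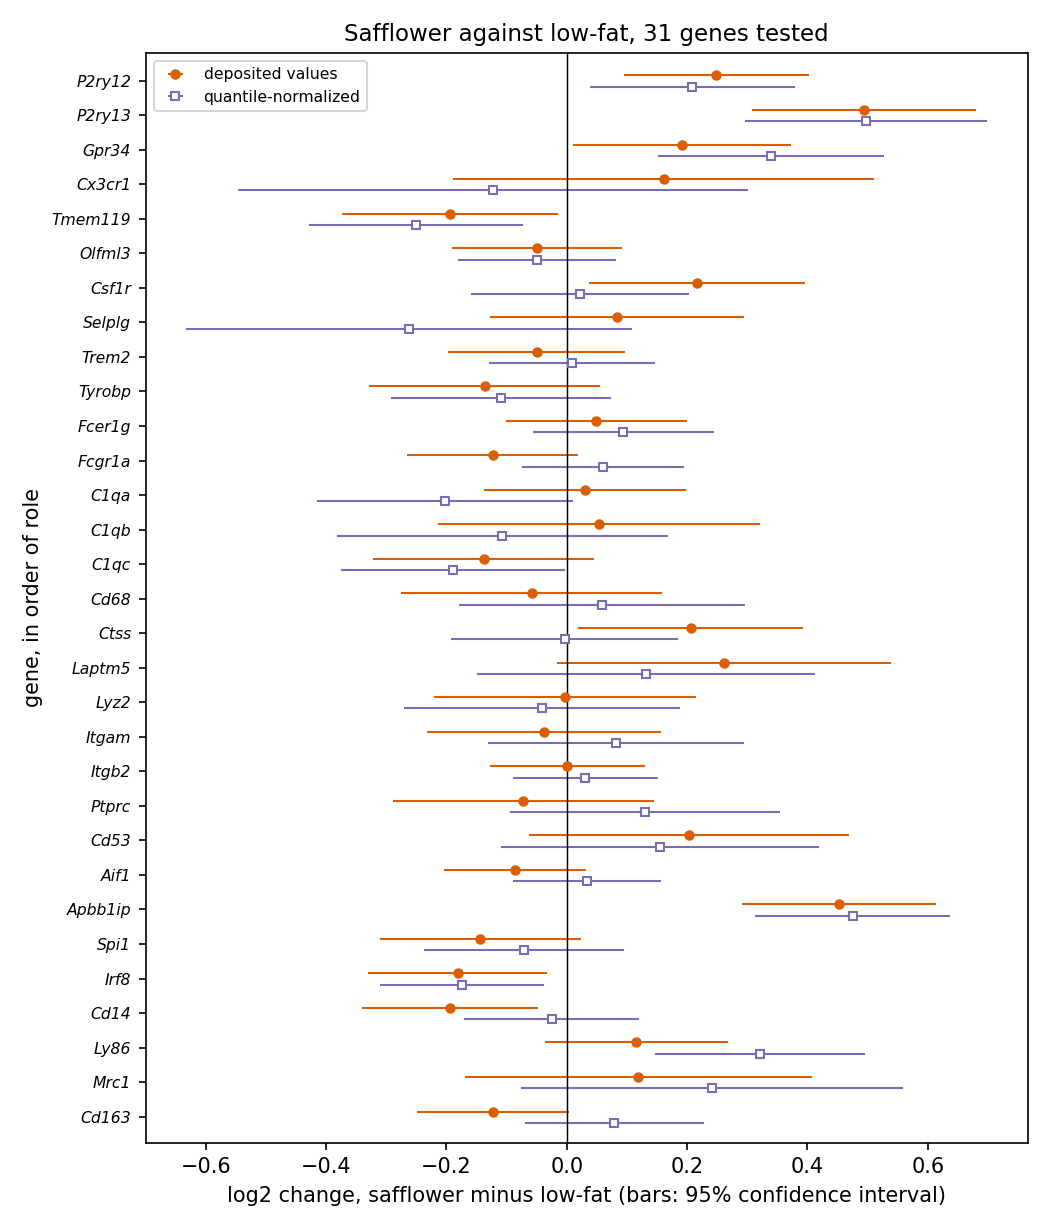
Log2 change of the 31 tested genes between the safflower and the low-fat diet (horizontal axis), with 95% confidence intervals from limma as bars, for the deposited values (filled circles) and after quantile normalization (open squares). P2ry13 and Apbb1ip lie to the right of 0 by 0.49 and 0.45 with the deposited values, and most other intervals include 0.

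The receptors that mark unstimulated microglia came first in the order of roles. P2ry13 had log2 signals of 7.73, 8.05, 7.72 and 8.10 on the low-fat arrays, 8.18, 8.10, 8.14 and 8.33 on the flaxseed arrays and 8.52, 8.46, 8.31, 8.28 and 8.40 on the safflower arrays. Every safflower array lay above every low-fat array, and so did every flaxseed array, the lowest of them by less than 0.01. From low-fat to safflower it rose from 7.90 ± 0.20 (SD, n = 4) to 8.39 ± 0.10 (SD, n = 5), a log2 change of 0.49 (SE 0.09, limma adjusted p = 0.00379). After quantile normalization the log2 change was 0.50 (limma adjusted p = 0.01), and without low-fat replicate 3 it was 0.44 with the deposited and 0.45 with the quantile values. P2ry13 passed in all 13 fits that left out 1 array, with either scaling. The further row of P2ry13 on the array had a mean of 6.03, below the filter, with group means of 5.98, 5.97 and 6.12 in the order low-fat, flaxseed and safflower. With the mean of both rows the change of P2ry13 with safflower was 0.31 (limma adjusted p = 0.0252).

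P2ry12, the receptor through which microglial processes find released nucleotides, had log2 signals of 8.04, 8.31, 8.30 and 8.46 on the low-fat arrays, 8.56, 8.49, 8.65 and 8.55 on the flaxseed arrays and 8.55, 8.53, 8.50, 8.57 and 8.49 on the safflower arrays. The highest low-fat array lay below the lowest array of either high-fat diet. It rose with safflower from 8.28 ± 0.17 (SD, n = 4) to 8.53 ± 0.03 (SD, n = 5), a log2 change of 0.25 (SE 0.07, limma adjusted p = 0.0159). After quantile normalization the log2 change was 0.21 and did not pass (adjusted p = 0.0904), and low-fat replicate 4, at 8.47, then lay above safflower replicate 5, at 8.44. Without low-fat replicate 3 the deposited change was 0.26 (adjusted p = 0.0213) and the quantile change 0.23 (adjusted p = 0.0781). In the RefSeq annotation both P2ry12 and P2ry13 lie within Med12l, a gene of the Mediator kinase module, and P2ry13 is on the strand opposite to it. Med12l, looked up after these values were seen, had a log2 change of 0.01 with safflower (limma adjusted p = 0.912) and of -0.17 after quantile normalization (adjusted p = 0.109). Igsf10, a neighbour looked up with it, had 0.08 (limma adjusted p = 0.536) and 0.29 after quantile normalization (adjusted p = 0.101). The neighbours P2ry14 and Gpr171, at means of 5.74 and 4.62, were below the filter.

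Gpr34 had log2 signals of 7.18, 7.16, 6.94 and 7.40 on the low-fat arrays, 7.30, 7.35, 7.41 and 7.15 on the flaxseed arrays and 7.51, 7.37, 7.35, 7.27 and 7.31 on the safflower arrays. Low-fat replicate 4 lay within the safflower range and the other low-fat arrays below it. Its change of 0.19 with safflower did not pass with the deposited values (adjusted p = 0.0819), and after quantile normalization it was 0.34 (adjusted p = 0.0233). The quantile call held in 9 of 13 fits without 1 array and was lost, at adjusted p up to 0.0636, without low-fat replicate 1 or 2 or safflower replicate 1 or 5. The change of Gpr34 without low-fat replicate 3 was 0.12 (adjusted p = 0.253) with the deposited and 0.27 (adjusted p = 0.0399) with the quantile values.

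Tmem119, a membrane protein used as a microglial marker, had log2 signals of 8.69, 8.53, 8.32 and 8.47 on the low-fat arrays, 8.60, 8.30, 8.44 and 8.22 on the flaxseed arrays and 8.34, 8.26, 8.39, 8.22 and 8.33 on the safflower arrays. Safflower and low-fat arrays overlapped only through low-fat replicate 3. Its change with safflower was -0.19 (95% confidence interval -0.37 to -0.01, adjusted p = 0.0774) and -0.25 after quantile normalization (adjusted p = 0.0569). Without low-fat replicate 3 it was -0.25 (adjusted p = 0.0282) and with quantile normalization -0.31 (adjusted p = 0.0264), and it passed as well without flaxseed replicate 1 (-0.19, adjusted p = 0.0485). Its sign was thus opposite to that of P2ry12 and P2ry13.

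Cx3cr1, the fractalkine receptor, had log2 signals of 10.26, 10.18, 9.42 and 10.17 on the low-fat arrays, 10.37, 10.40, 10.14 and 9.74 on the flaxseed arrays and 10.23, 10.03, 10.17, 10.05 and 10.37 on the safflower arrays. Low-fat replicate 3 and flaxseed replicate 4 were below all other arrays, and the groups overlapped. The change with safflower was 0.16 (95% confidence interval -0.19 to 0.51) and turned to -0.12 after quantile normalization (95% confidence interval -0.55 to 0.30). It was, without low-fat replicate 3, -0.04 with the deposited and -0.34 with the quantile values (adjusted p = 0.841 and 0.124), so its sign with the deposited values rests on that array. Csf1r, the receptor for the growth factors Csf1 and Il34, had log2 signals of 9.61, 9.60, 9.33 and 9.49 on the low-fat arrays, 9.78, 9.80, 9.51 and 9.54 on the flaxseed arrays and 9.84, 9.65, 9.73, 9.58 and 9.83 on the safflower arrays. All safflower arrays but replicate 4 and flaxseed replicates 1 and 2 were above every low-fat array, and the groups overlapped. Its change of 0.22 stood just outside the threshold (adjusted p = 0.0534), passed without flaxseed replicate 1 or safflower replicate 4 (adjusted p = 0.0481 and 0.0317), was 0.16 without low-fat replicate 3 (adjusted p = 0.151), and was 0.02 after quantile normalization (adjusted p = 0.886). Selplg, the P-selectin ligand, had a change of 0.08 that turned to -0.26 with quantile normalization and to -0.03 without low-fat replicate 3. With quantile normalization and without that array the change of Selplg was -0.42 (limma adjusted p = 0.0544). Olfml3, a secreted olfactomedin protein, had -0.05 with either scaling, and none of these passed. Of the 8 genes of this role, 2 (P2ry12 and P2ry13) were called higher and none lower with the deposited values. Among all genes tested 22.9% were higher and 16.9% lower. With the quantile values 2 (P2ry13 and Gpr34) were higher and none lower, where 10.1% and 4.37% of all genes were.

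**Figure D2:**
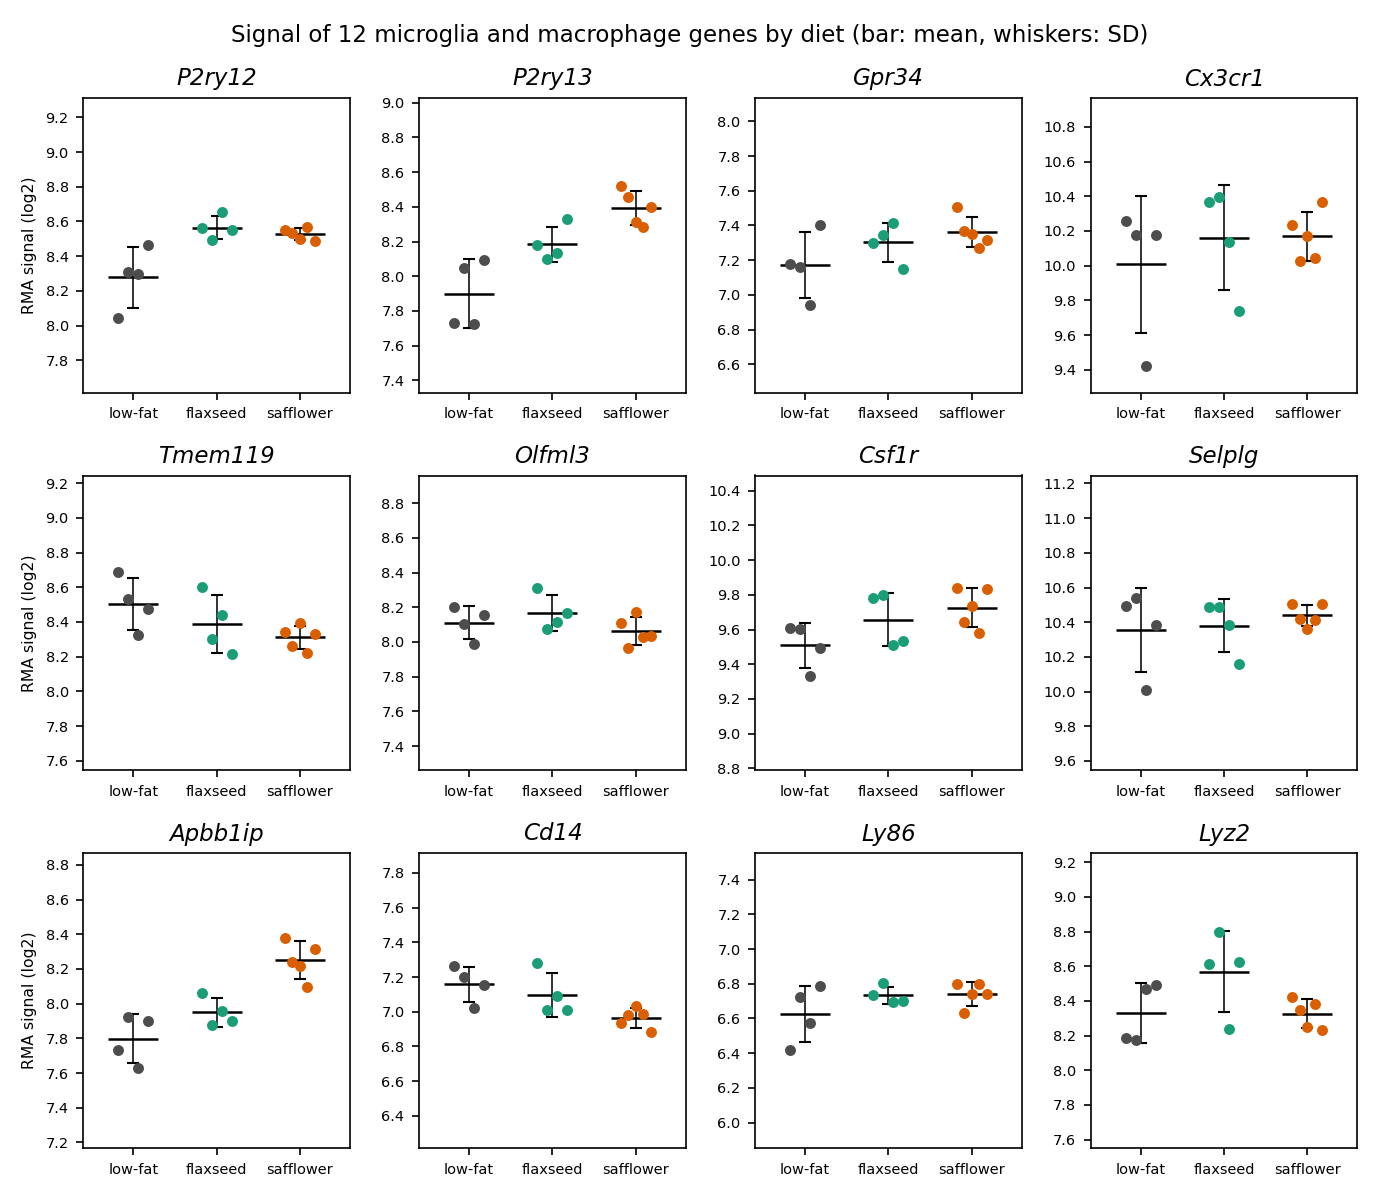
RMA signal (log2, vertical axis, 1.7 units high in each panel) of 12 genes on each array, by diet. Points are arrays, the horizontal bar is the mean and the whiskers are the SD (n = 4, 4 and 5). P2ry13 and Apbb1ip on the 5 safflower arrays lie above all low-fat arrays, and Tmem119 and Cd14 lie lower there in the mean.

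The signalling receptors Trem2 and Fcgr1a and their partners Tyrobp and Fcer1g, adaptors that carry the activation signal, gave no call. Tyrobp had log2 signals of 8.09, 7.998, 7.78 and 8.10 on the low-fat arrays, 8.18, 8.08, 7.93 and 7.76 on the flaxseed arrays and 7.94, 7.76, 7.80, 7.81 and 7.97 on the safflower arrays, and the groups overlapped. The changes with safflower in this role ran from -0.14 for Tyrobp to 0.05 for Fcer1g, with -0.05 for Trem2, the lipid-sensing receptor, and -0.12 for Fcgr1a, the high-affinity receptor for immunoglobulin G. After quantile normalization they ran from -0.11 to 0.09, and Trem2 and Fcgr1a turned to 0.01 and 0.06. Leaving out low-fat replicate 3 gave deposited changes of -0.21 for Tyrobp, -0.02 for Fcer1g, -0.08 for Trem2 and -0.16 for Fcgr1a, and none passed. For Trem2 the 95% confidence interval of the deposited change was -0.20 to 0.10.

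The complement genes C1qa, C1qb and C1qc, which lie next to each other in the genome and encode the chains of the C1q molecule, gave no call either. C1qa had log2 signals of 10.00, 9.98, 9.76 and 9.92 on the low-fat arrays, 10.19, 10.08, 9.85 and 9.95 on the flaxseed arrays and 10.02, 9.81, 10.06, 9.89 and 9.94 on the safflower arrays. C1qb had 9.33, 9.38, 8.90 and 9.10 on the low-fat arrays, 9.58, 9.28, 9.15 and 8.85 on the flaxseed arrays and 9.38, 9.18, 9.18, 9.15 and 9.25 on the safflower arrays. Low-fat and safflower arrays overlapped for each chain. The changes with safflower were 0.03, 0.05 and -0.14 for C1qa, C1qb and C1qc and moved to -0.20, -0.11 and -0.19 after quantile normalization. The deposited changes of C1qa and C1qb without low-fat replicate 3 turned to -0.02 and -0.04. C1qc was below the low-fat mean with either scaling and passed without low-fat replicate 3, at -0.24 (adjusted p = 0.0156) and -0.29 (adjusted p = 0.0164).

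Of the lysosomal and phagocytic genes, Ctss, the protease cathepsin S, had log2 signals of 9.78, 9.85, 9.72 and 9.73 on the low-fat arrays, 10.05, 10.14, 9.93 and 9.84 on the flaxseed arrays and 10.15, 9.84, 9.94, 9.78 and 10.17 on the safflower arrays. All flaxseed arrays but replicate 4 and all safflower arrays but replicates 2 and 4 were above the highest low-fat array. Its change of 0.21 with safflower did not pass (adjusted p = 0.0721), passed without safflower replicate 4 (0.26, adjusted p = 0.03), and was below 0.01 in size after quantile normalization. Laptm5, a lysosomal membrane protein, changed by 0.26 (adjusted p = 0.116), by 0.14 without low-fat replicate 3 (adjusted p = 0.372), by 0.13 after quantile normalization (adjusted p = 0.528), and by 0.33 without safflower replicate 4 (adjusted p = 0.0482). Cd68, a scavenger protein of late endosomes, averaged 7.45 ± 0.16 (SD, n = 4) after low-fat and 7.39 ± 0.13 (SD, n = 5) after safflower feeding, a change of -0.06 that turned to 0.06 with quantile normalization and was -0.13 without low-fat replicate 3. Lyz2, the lysozyme of macrophages, had the same mean of 8.33 on low-fat and 8.33 on safflower arrays.

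In the adhesion and leukocyte surface group, Apbb1ip had log2 signals of 7.73, 7.92, 7.63 and 7.90 on the low-fat arrays, 8.06, 7.88, 7.96 and 7.90 on the flaxseed arrays and 8.38, 8.24, 8.22, 8.10 and 8.32 on the safflower arrays. Every safflower array lay above every low-fat and every flaxseed array. It rose with safflower from 7.80 ± 0.14 (SD, n = 4) to 8.25 ± 0.11 (SD, n = 5), a log2 change of 0.45 (SE 0.08, limma adjusted p = 0.00379). The change was 0.48 after quantile normalization (limma adjusted p = 0.00946) and, without low-fat replicate 3, 0.40 with the deposited and 0.43 with the quantile values. It passed in all 13 fits without 1 array, with either scaling. Itgam and Itgb2, the chains of the integrin Mac-1 with which such an adaptor can act, had changes of -0.04 and 0.00 (95% confidence intervals -0.23 to 0.16 and -0.13 to 0.13). After quantile normalization these changes were 0.08 and 0.03. Ptprc (the leukocyte antigen CD45), Cd53 (a tetraspanin) and Aif1 (the microglial protein Iba1) had changes of -0.07, 0.20 and -0.09, with 0.13, 0.15 and 0.03 after quantile normalization, and none passed. When low-fat replicate 3 was left out, the deposited changes were -0.08 for Itgam, -0.05 for Itgb2, -0.02 for Ptprc, 0.17 for Cd53 and -0.09 for Aif1.

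Separate groups with safflower above low-fat were found for 3 of the 31 genes (P2ry12, P2ry13 and Apbb1ip) and for 13.5% of all genes tested, and with safflower below low-fat for none of the 31 and for 12.5% of all. With low-fat replicate 3 set aside, deposited safflower values all lay below the remaining low-fat values for Tmem119, Tyrobp, C1qc, Spi1, Irf8 and Cd14. The share of all genes that did so without that array was not computed, so these separations cannot be read as particular to this set. After quantile normalization P2ry13, Apbb1ip and Ly86 lay above (10.0% of all genes) and Tmem119 below (5.23%).

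Both transcription factors were lower in the mean without a call. Spi1 had log2 signals of 7.92, 7.78, 7.53 and 7.86 on the low-fat arrays, 7.84, 7.80, 7.70 and 7.60 on the flaxseed arrays and 7.73, 7.60, 7.66, 7.53 and 7.64 on the safflower arrays. Irf8 had 8.26, 8.15, 7.95 and 8.18 on the low-fat arrays, 8.16, 8.01, 8.13 and 7.996 on the flaxseed arrays and 8.01, 7.89, 8.04, 7.97 and 7.85 on the safflower arrays. In each, low-fat replicate 3 lay among the safflower arrays and the other low-fat arrays lay above all of them. Their changes with safflower were -0.14 (adjusted p = 0.149) and -0.18 (adjusted p = 0.0505), and -0.07 and -0.17 after quantile normalization. Without low-fat replicate 3 they were -0.22 (adjusted p = 0.019) and -0.24 (adjusted p = 0.0102), and with quantile normalization -0.15 (adjusted p = 0.143) and -0.23 (adjusted p = 0.0216). Irf8 also passed without flaxseed replicate 1 (adjusted p = 0.0478) and, at an adjusted p just under 0.05, without safflower replicate 3.

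Because PU.1 binds a purine-rich sequence in many genes of this lineage, RefSeq promoters (GRCr8, 250 bases before to 50 after the start) were searched for GAGGAAGT on both strands. Promoters were found for 20 of the 32 genes, and 2 of the 20 held the motif (10%), against 2.42% of all 33469 promoters. The joint element of ETS and IRF factors, GGAA and GAAA with 2 bases between them, was found in 1 of 20 (Cd68) and in 2.94% of all, and the shorter GAGGAA, which is part of the first motif and was added after the first counts were seen, in 13 of 20 (65%) and in 27.6% of all. Both promoters with GAGGAAGT are shown as the genes that hold it, and those of P2ry13 and Apbb1ip because these genes were called higher with both scalings. Capitals mark the motif, which lies on the other strand in Ctss and Cd53 and therefore reads as its reverse complement, beginning 17 and 46 bases before the annotated start. A match is a string of letters and not a site of binding.
Ctss (chr2:185775146-185775445, + strand): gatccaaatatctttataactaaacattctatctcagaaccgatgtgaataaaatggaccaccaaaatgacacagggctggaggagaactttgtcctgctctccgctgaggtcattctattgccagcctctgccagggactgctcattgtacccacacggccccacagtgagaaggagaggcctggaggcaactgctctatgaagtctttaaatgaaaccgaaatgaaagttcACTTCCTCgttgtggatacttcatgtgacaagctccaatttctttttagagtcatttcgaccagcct
Cd53 (chr2:197087847-197088146, - strand): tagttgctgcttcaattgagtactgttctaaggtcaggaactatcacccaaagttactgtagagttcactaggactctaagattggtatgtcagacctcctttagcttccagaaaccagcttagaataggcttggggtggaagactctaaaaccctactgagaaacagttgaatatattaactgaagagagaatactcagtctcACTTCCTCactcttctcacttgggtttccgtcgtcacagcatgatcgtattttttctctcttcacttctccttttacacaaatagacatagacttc
P2ry13 (chr2:145622735-145623034, - strand): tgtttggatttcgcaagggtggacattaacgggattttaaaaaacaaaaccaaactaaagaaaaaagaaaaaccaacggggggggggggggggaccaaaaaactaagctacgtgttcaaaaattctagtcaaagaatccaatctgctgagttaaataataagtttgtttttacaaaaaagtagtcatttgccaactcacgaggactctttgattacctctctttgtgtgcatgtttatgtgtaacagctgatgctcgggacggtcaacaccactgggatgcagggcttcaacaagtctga
Apbb1ip (chr17:89890772-89891071, + strand): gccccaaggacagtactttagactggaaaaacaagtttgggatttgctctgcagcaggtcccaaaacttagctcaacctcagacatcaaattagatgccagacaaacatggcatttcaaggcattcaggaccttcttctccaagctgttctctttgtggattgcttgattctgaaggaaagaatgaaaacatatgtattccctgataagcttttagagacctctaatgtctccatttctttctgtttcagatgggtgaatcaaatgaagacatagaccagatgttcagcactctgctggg
Neither of the last sequences holds any of the 3 motifs, and the changes with safflower of the genes with GAGGAAGT were 0.21 for Ctss and 0.20 for Cd53, without a call.

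Of the genes of endotoxin recognition, Cd14 had log2 signals of 7.26, 7.20, 7.02 and 7.15 on the low-fat arrays, 7.28, 7.01, 7.09 and 7.01 on the flaxseed arrays and 6.93, 6.98, 7.03, 6.99 and 6.88 on the safflower arrays. Low-fat replicate 3 lay within the safflower range and the other low-fat arrays above it. Cd14 fell with safflower from 7.16 ± 0.10 (SD, n = 4) to 6.96 ± 0.06 (SD, n = 5), a log2 change of -0.19 (SE 0.07, limma adjusted p = 0.0359). The change was -0.03 after quantile normalization (adjusted p = 0.837), and with the deposited values it passed in 7 of 13 fits without 1 array, failing at adjusted p up to 0.102 without low-fat replicate 1, 2 or 4 or safflower replicate 1, 2 or 5. Without low-fat replicate 3 it was -0.24 (adjusted p = 0.0145). Ly86 had log2 signals of 6.42, 6.72, 6.57 and 6.79 on the low-fat arrays, 6.73, 6.80, 6.69 and 6.70 on the flaxseed arrays and 6.80, 6.63, 6.74, 6.80 and 6.74 on the safflower arrays, and the groups overlapped. Its change of 0.12 did not pass (adjusted p = 0.199), while after quantile normalization it was 0.32 with no overlap (adjusted p = 0.0223), a call lost at adjusted p up to 0.059 without low-fat replicate 1 or safflower replicate 1 or 5. The changes of Ly86 without low-fat replicate 3 were 0.10 (adjusted p = 0.322) and 0.31 (adjusted p = 0.0339). Cd14 and Ly86, with 13-array means of 7.07 and 6.70, were both under the olfactory 95th percentile of 7.25.

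Mrc1 and Cd163, the mannose and haemoglobin scavenger receptors of perivascular macrophages, did not pass. Mrc1 had log2 signals of 7.60, 7.21, 7.22 and 7.22 on the low-fat arrays, 7.79, 7.35, 7.06 and 7.37 on the flaxseed arrays and 7.61, 7.49, 7.54, 7.10 and 7.42 on the safflower arrays. Low-fat replicate 1 and flaxseed replicate 1 were the highest of their groups by far, and the change with safflower was 0.12 (95% confidence interval -0.17 to 0.41). After quantile normalization that change was 0.24 (95% confidence interval -0.08 to 0.56). Cd163 changed by -0.12 (adjusted p = 0.108), which turned to 0.08 after quantile normalization. Hpgds, not tested, had 6.47 to 6.57 on low-fat, 6.50 to 6.58 on flaxseed and 6.34 to 6.58 on safflower arrays. Its difference between safflower and low-fat was -0.03 and turned to 0.18 after quantile normalization.

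With the flaxseed diet no gene of the set passed against low-fat. P2ry12 and P2ry13 had the 2 log2 changes that came with separate groups, 0.29 (95% confidence interval 0.13 to 0.45) and 0.29 (95% confidence interval 0.09 to 0.48), both at limma adjusted p = 0.205. After quantile normalization they were 0.26 and 0.30 (adjusted p = 0.318 and 0.319). Separation with flaxseed above was found for these 2 of the 31 genes and for 5.88% of all genes tested, and with flaxseed below for none of the 31 and for 2.44%. After quantile normalization P2ry12, P2ry13 and Aif1 lay above (3.79% of all genes) and none of the 31 below (1.71%). Without low-fat replicate 3 the deposited changes with flaxseed were 0.29 for P2ry12 and 0.23 for P2ry13 (adjusted p = 0.106 and 0.148), and none of the 31 genes passed. This comparison uses the same low-fat arrays as that with safflower, in which the changes were 0.25 and 0.49.

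Cd53 had log2 signals of 8.21, 8.47, 8.23 and 8.39 on the low-fat arrays, 8.90, 8.71, 8.35 and 8.51 on the flaxseed arrays and 8.90, 8.50, 8.51, 8.23 and 8.49 on the safflower arrays. Flaxseed replicates 1, 2 and 4 were above the highest low-fat array, a change of 0.29 (adjusted p = 0.237). Lyz2 had log2 signals of 8.19, 8.17, 8.47 and 8.49 on the low-fat arrays, 8.61, 8.79, 8.24 and 8.63 on the flaxseed arrays and 8.42, 8.35, 8.25, 8.38 and 8.23 on the safflower arrays. Flaxseed replicates 1, 2 and 4 were again above the highest low-fat array, a change of 0.24 (adjusted p = 0.239). Ctss changed by 0.22 (adjusted p = 0.225) and by 0.07 after quantile normalization. The changes of C1qa, C1qb, C1qc, Trem2, Tyrobp, Cd68, Itgam and Aif1 with flaxseed lay between -0.06 (Cd68) and 0.10 (C1qa), and without low-fat replicate 3 between -0.15 (C1qc) and 0.05 (C1qa). After quantile normalization of all arrays they lay between -0.10 (C1qc) and 0.05 (Aif1), with C1qa at -0.07. Without low-fat replicate 3 the deposited flaxseed changes of Cx3cr1, Laptm5 and Selplg turned from 0.15, 0.08 and 0.02 to -0.04, -0.05 and -0.09.

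The limma count was 0 of 31 for flaxseed against low-fat, as it was 0 of 16033 among all genes tested (0%), with either scaling. At an unadjusted p under 0.05 there were 5 of 31, against 20.1% of all genes, and with array weights 5 of 31 had an adjusted p under 0.05, where 29.4% of all genes did. The log2 change was above 0 in 19 of 31 genes, against 62.3% of all, with a median of 0.06 beside 0.05 over all genes. All 31 confidence intervals lay inside a 1.5-fold change in either direction, and 30 did after quantile normalization.

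Between the high-fat diets, at the same share of fat, no gene passed either. Apbb1ip was higher with safflower than with flaxseed on every array, with a log2 change of 0.30 (95% confidence interval 0.14 to 0.46, limma adjusted p = 0.246) and 0.30 after quantile normalization (adjusted p = 0.487). Such a separation was found for 2.20% of all genes tested, and after quantile normalization, where Apbb1ip kept it, for 1.83%. Lyz2 had a lower mean with safflower, a difference of -0.24 (95% confidence interval -0.46 to -0.02, adjusted p = 0.283), with safflower arrays inside the flaxseed range through flaxseed replicate 3. P2ry13 had 0.21 (adjusted p = 0.281), Ptprc -0.21 (adjusted p = 0.337) and P2ry12 -0.04 (95% confidence interval -0.19 to 0.11). Fcgr1a was the 1 gene with all safflower arrays below all flaxseed arrays, at a difference of -0.13 (adjusted p = 0.351), a separation that 3.70% of all genes showed and that was lost after quantile normalization.

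The count of 0 of 31 for limma between the high-fat diets again matched 0% of all genes tested, with either scaling. At an unadjusted p under 0.05 there were 3 of 31 (Apbb1ip, Lyz2 and P2ry13), against 15.5% of all genes, and with array weights 6 of 31 passed, where 29.1% of all genes did. The median log2 change was -0.04 over the 31 genes and 0.003 over all, and all 31 confidence intervals lay inside a 1.5-fold change in either direction, with either scaling.

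**Figure D3:**
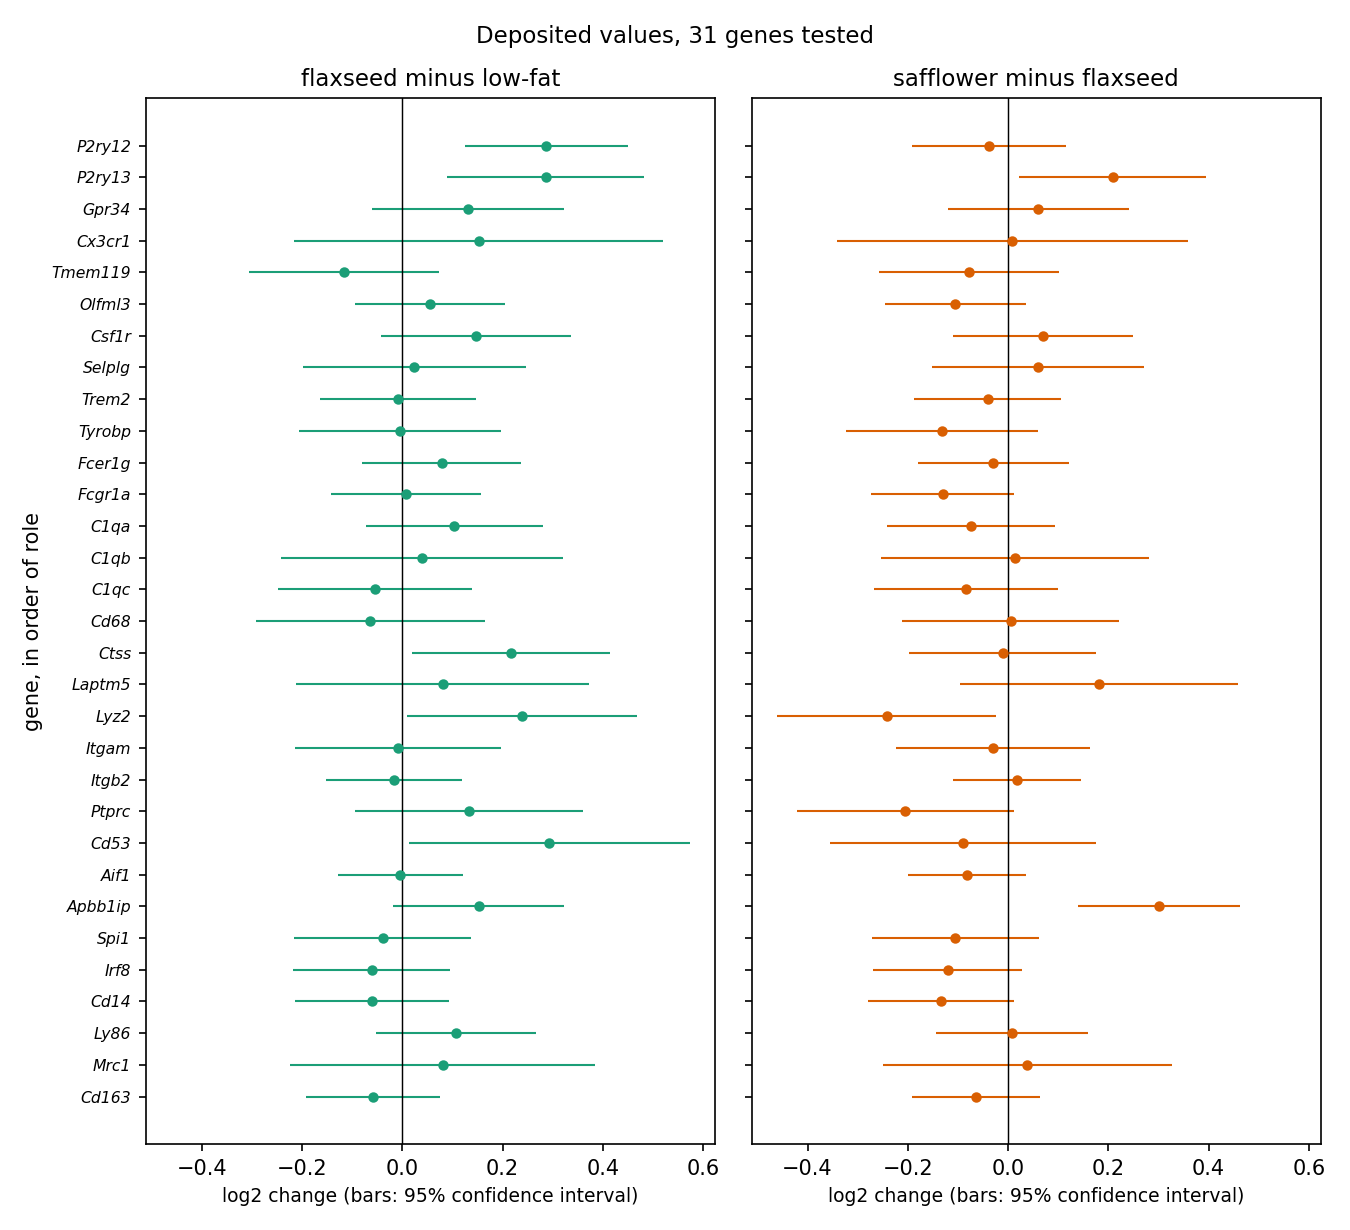
Log2 change of the 31 tested genes (horizontal axis, deposited values) for flaxseed minus low-fat on the left and safflower minus flaxseed on the right, with 95% confidence intervals from limma as bars. No gene passed in either comparison. P2ry12 and P2ry13 stand at 0.29 and 0.29 on the left and Apbb1ip at 0.30 on the right.

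Within a diet, arrays tended to be high or low in many of these genes at once, and most such arrays were so across all genes tested as well. Low-fat replicate 3 had the lowest value of its diet in 23 of the 32 genes (71.9%), where it was lowest in 62.8% of all genes tested. Safflower replicate 1 had the highest value of its diet in 15 of 32 (46.9%), against 17.4% of all genes tested, and after quantile normalization in 20 of 32 (62.5%), against 20.6%. Safflower replicate 4 was lowest in 15 of 32 (46.9%, against 43.6% of all). Flaxseed replicate 1 was highest in 17 of 32 and flaxseed replicate 4 lowest in 17 of 32, against 50.3% and 46.1% of all.

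**Figure D4:**
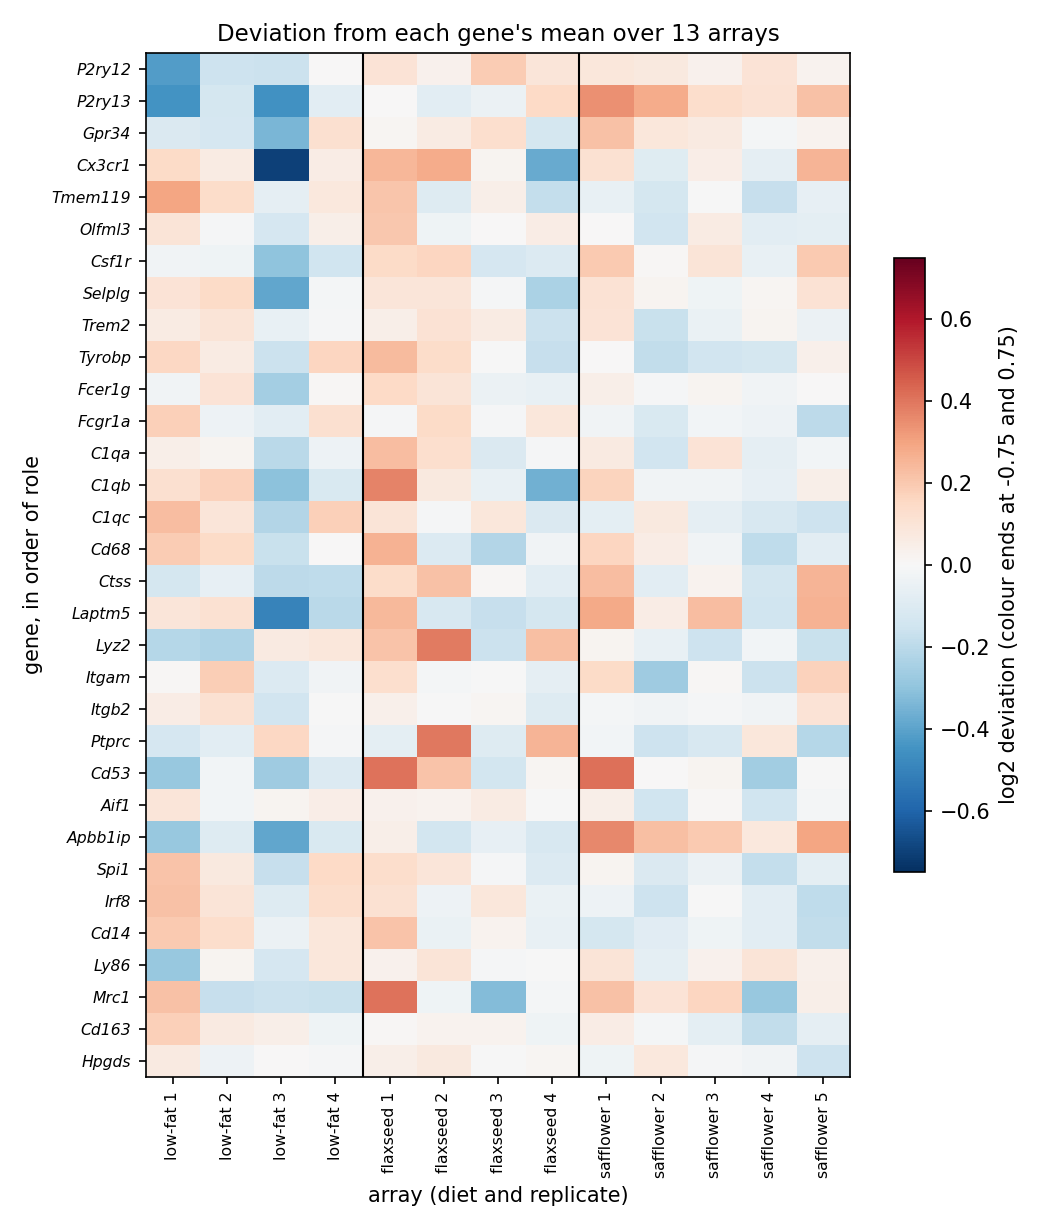
Deviation of each of the 32 genes (rows, in order of role) from its mean over the 13 arrays, on each array (columns), in log2 units of the deposited values. Red is above and blue below the mean. Low-fat replicate 3 is blue in most rows, the lowest of its diet in 23 of 32, and the rows of P2ry13 and Apbb1ip are red on all 5 safflower arrays.

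Further genes of the same biology were taken from lists that hold no member. Each list's counts with safflower stand beside 22.9% higher and 16.9% lower among all genes tested, and 10.1% and 4.37% with quantile normalization. Without low-fat replicate 3, 40.1% of all genes passed in either direction, and 19.4% with quantile normalization. Of the 8 ligands and partners that neurons and glia offer to microglia, 2 were higher with safflower and none lower: Cd47, a signal against phagocytosis (0.20, limma adjusted p = 0.0164), and Cd200, which restrains microglia (0.20, adjusted p = 0.0168). After quantile normalization they were -0.01 and -0.07, and none of the 8 passed. Of 33 tested among further microglia genes, 2 were higher and 2 lower. Lyn, a Src-family kinase, rose by 0.27 (adjusted p = 0.0324) and by 0.37 with quantile normalization (adjusted p = 0.0249), and Csf3r, the receptor for granulocyte colony-stimulating factor, changed by -0.23 (adjusted p = 0.0206) and by -0.08 with quantile normalization (adjusted p = 0.467). With quantile normalization 1 of the 33 was higher and 1 lower. In the fit that left out low-fat replicate 3, the ligands still gave 2 higher, while 1 of the 33 was higher and 8 were lower (1 and 2 with quantile normalization), Lyn had 0.20 (adjusted p = 0.0961) and Csf3r -0.30 (adjusted p = 0.00311).

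Of 16 tested genes known to rise in reactive microglia, 2 were higher and 1 lower with safflower, and none with quantile normalization. Ctsd, the lysosomal protease cathepsin D, which neurons also express, had 0.35 (adjusted p = 0.0314) and 0.07 with quantile normalization, and Itgax, an integrin chain, -0.23 (adjusted p = 0.0082) and -0.03. Of 8 tested genes of border macrophages, 2 were lower with safflower and none higher: Siglec1, a sialic acid receptor (-0.24, adjusted p = 0.025), and Clec10a, a lectin (-0.21, adjusted p = 0.0206). With quantile normalization 1 of the 8 was higher and none lower. With low-fat replicate 3 left out, none of the 16 was higher and 1 was lower, with Ctsd at 0.27 (adjusted p = 0.0918), and 2 of the 8 were lower (none of either list with quantile normalization). In these 4 lists no gene passed for flaxseed against low-fat or safflower against flaxseed with limma, with or without that array. Pf4, a chemokine of border macrophages and platelets, had 0.39 (SE 0.22, adjusted p = 0.312) for flaxseed against low-fat and -0.63 (SE 0.21, adjusted p = 0.246) for safflower against flaxseed.

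Markers of other cells were counted in the comparison of safflower with low-fat. There 22.9% of all genes tested were higher and 16.9% lower, and 10.1% and 4.37% with quantile normalization. Of 12 neuronal markers 9 were higher with safflower than low-fat and none lower (1 higher with quantile normalization), with a mean log2 signal of 10.50 to 10.87 on low-fat, 10.73 to 10.78 on flaxseed and 10.78 to 11.17 on safflower arrays. Of 8 tested markers of other blood cells 6 were lower (2 with quantile normalization), with a mean of 7.52 to 7.68 on low-fat, 7.21 to 7.72 on flaxseed and 7.16 to 7.37 on safflower arrays. Astrocytes had 3 of 10 higher, oligodendrocytes 1 of 9 and endothelium 1 of 8, with none lower (with quantile normalization 1 higher in endothelium and none in the others). The counts without low-fat replicate 3 were 5 of 12 neuronal, 3 of 10 astrocyte, none of 9 oligodendrocyte and 1 of 8 endothelial markers higher, and 6 of 8 of other blood cells lower. In that fit 40.1% of all genes passed in either direction, and no share by direction was computed. With quantile normalization and without that array, no neuronal, astrocyte, oligodendrocyte or endothelial marker was higher. Of other blood cells 2 of 8 were then lower, where 19.4% of all genes passed in either direction. The part of these cells in the changes of P2ry12, P2ry13, Apbb1ip and Cd14 was not tested.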

How the data were processed

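Hypothalamic RNA (100 ng) was measured on 13 Affymetrix arrays with the GeneChip WT PLUS protocol, per the labels' protocols. The deposited table holds log2 signals of 70580 rows, made by the authors with RMA in Affymetrix Expression Console, per the submitters' processing notes, which also name Transcriptome Analysis Console, and their genome build was not given in the sources used here. Rows with exactly 1 symbol (23446) gave 22093 genes, symbols were updated by gene ID to RefSeq GRCr8 (1 changed), and 16033 genes with a mean at or above 6.58 were tested. Group means of the 3 diets were fitted in 1 limma model (version 3.58.1, R version 4.3.3, lmFit and eBayes, 10 residual degrees of freedom) with two-sided tests, with Benjamini-Hochberg adjustment and a threshold of 0.05. The method was tested on simulated data in which each gene varied independently. Shifts shared by many genes of an array were not part of that test. Precision is limited by the number of arrays, and the median 95% confidence half-width over the 31 genes was 0.18 for safflower against low-fat.

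The 32 genes and the other lists (143 genes, 132 on the array, 112 tested) were chosen with earlier results of these data known. All 32 could be named, and of each further microglial list the 2 genes of smallest unadjusted p in a comparison could be. Alternatives were quantile, cyclic loess and median scaling, 2 other filters, the mean of a gene's rows, fits of only the diets compared, a replicate block, array weights and leaving out each array. Quantile normalization with an array left out or with the block, and the other lists without low-fat replicate 3, were added after seeing the data. No batch was given in the sources used here.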

Additional observations from a re-analysis of the deposited data

Results flagged for a closer look

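In 4 of the 96 sets of arrays looked at (32 genes on 3 diets), 1 array lay far from the others of its diet by Dixon's ratio of the gap to the range, and chance gives about 1 in 20. Cx3cr1 was at 9.42 on low-fat replicate 3 and between 10.17 and 10.26 on the other low-fat arrays. Mrc1 was at 7.60 on low-fat replicate 1 and between 7.21 and 7.22 on the others. Laptm5 was at 9.19 on flaxseed replicate 1 and between 8.78 and 8.83 on the others. Itgb2 was at 8.03 on safflower replicate 5 and between 7.90 and 7.92 on the others.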

How the results depend on the processing

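For safflower against low-fat, 4 of 31 genes passed with the deposited values, 10 with median centring (3 higher and 7 lower), 10 with array weights (6 higher and 4 lower), 6 with cyclic loess, 6 of 32 without the filter and 3 of 19 with the stricter filter, where 39.8%, 42.1%, 56.1%, 19.3%, 45.3% and 36.0% of all genes tested did. Leaving out 1 array gave 3 to 8 of 31, where 28.1% to 42.5% of all genes passed. With quantile normalization it gave 2 to 7 of 31, where 5.49% to 19.4% of all genes did. P2ry13 and Apbb1ip passed under each of these. Cd163 and Aif1, called lower with median centring only (-0.17 and -0.13), were above 0 with quantile normalization (0.08 and 0.03) and cyclic loess (0.10 and 0.04). With array weights 5 passed for flaxseed against low-fat and 6 for safflower against flaxseed, where the other planned settings, leaving out 1 array included, gave 0. Median log2 changes over the genes stayed within the spread between arrays: without 1 array they ran from -0.04 to 0.04 for safflower against low-fat, -0.03 to 0.09 for flaxseed against low-fat and -0.09 to 0.004 for safflower against flaxseed. The cause of these differences was not tested.

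With the replicate number as a block, 3 of 31 genes passed for safflower against low-fat with the deposited values, where 29.0% of all did. Cd14 did not pass, at limma adjusted p = 0.0936. In the other comparisons 0 of 31 passed, beside 0% of all genes. With quantile normalization and the block 0 of 31 passed (1 of 16033 genes), and P2ry13 and Apbb1ip kept changes of 0.50 and 0.46 (adjusted p = 0.0566 for both). In their deviations from the group means over the genes tested, same-numbered arrays correlated at 0.20 to 0.43 for numbers 1 and 4 and at -0.26 to 0.18 for numbers 2 and 3, and an array correlated best with its own number in another diet in 8 of 24 comparisons. These values cannot settle whether the arrays were paired. The labels do not say that a number pairs animals, and the block was for that reason used only as an alternative.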
